A study of Gallus gallus with 12 samples.

Results

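The transcripts described here encode cytosolic heat shock proteins (HSPs), the HSP70, HSP110 and HSP90 chaperones, of the chicken pineal gland and 3 of their co-chaperones. The members were HSPA2 and HSPA8 of the HSP70 family, HSPH1 of the HSP110 family, HSP90AA1 of the HSP90 family, and the HSP90 partners STIP1, AHSA1 and AHSA2. They were found by gene symbol, as every probe set whose annotation named one of these 7 genes and no other. That gave 12 of the 38439 probe sets on the array that were not controls, or 7 of 13009 named genes. HSPA2 and HSPA8 had 1 probe set each, and the other 5 genes had 2 each, called set 1 and set 2 in order of brightness. A probe set is a group of short probes against 1 transcript, and its intensity is the brightness of the bound, labelled RNA. The current gene table gives HSP70 as a synonym of HSPA2 and HSC70 as a synonym of HSPA8.

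Chaperones of these families hold unfolded or partly folded proteins and help them to reach their native form. HSP70 proteins bind short exposed stretches of a client in a cycle driven by ATP, HSP110 proteins release ADP from HSP70 so that the cycle can go on, and HSP90 takes over clients such as kinases and steroid receptors at a later stage of folding. STIP1, also known as HOP, joins HSP70 to HSP90, and AHSA1 and its relative AHSA2 speed up the ATPase cycle of HSP90. Many of these genes are textbook targets of heat shock factors, transcription factors that act when unfolded proteins build up, while HSPA8 is known as the constitutive HSP70 of most cells.

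The tissue was the whole pineal gland of male chicks 8 days old. This gland detects light, keeps its own circadian time and makes melatonin. All chicks had first been held in cycles of 12 h light and 12 h dark, over 7 days, and then in darkness for a day. The light groups received light for 1 h that began at circadian time 6 (CT6), which falls in subjective day, at CT14 (early subjective night) or at CT22 (late subjective night). The dark groups of the same times had no light pulse. Glands were removed as the pulse ended, and each array measured RNA pooled from 6 glands. Each of the 6 groups had 2 arrays from separate biological samples, and this small number limits the precision of every value.

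Across the tested probe sets, the correlation of the 2 arrays of a group lay between 0.964 and 0.975, and median intensities before normalization lay between 20.1 and 28.9. The 3'/5' ratio of the actin control probe sets, a measure of RNA integrity and labelling, was 3.28 and 3.09 on the CT14 light arrays, against 4.67 and 3.95 on the CT14 dark arrays. On the other 8 arrays it lay between 3.62 and 4.23. Of 12 pinealocyte markers, 9 were on the array. All 9 were tested, with mean levels between the 72.1 and 99.99 percentile of all probe sets. The melatonin synthesis genes TPH1 and ASMT were among the brightest.

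With light, 2 of the 7 chaperone genes were called higher at CT6, 4 at CT14 and 6 at CT22, where 0.173%, 1.14% and 1.73% of all tested probe sets were called higher. A gene counts here if any of its probe sets was called, while the shares are of single probe sets. The 7 genes, like the related lists below, were chosen with earlier results of these data known, so such counts beside the shares are a description. STIP1 had no call at any time. No probe set of the 7 genes was lower with light past the threshold, where 0.0434%, 0.538% and 1.95% of all tested probe sets were lower at these times. A change is the log2 ratio of light to dark, and its standard error (SE) comes from the fit across all groups. It is called where the p-value, adjusted over all 23063 probe sets tested with the Benjamini-Hochberg method, was under 0.05. Of the 12 probe sets, 11 passed the filter on low values, while set 2 of STIP1 did not. Set 2 of HSPH1 passed it only through its light groups, since its dark means lay under the cut. At CT6, 3 of the 11 were called higher, for HSPA2 and HSP90AA1. At CT14, 6 were called higher, for HSPA2, HSPA8, HSP90AA1 and AHSA1. At CT22, 8 were called higher, for all genes except STIP1. The median change over the 11 was 0.37 at CT6, 0.60 at CT14 and 0.66 at CT22, beside medians over all tested probe sets of 0.001, 0.001 and -0.008. Both light arrays lay above both dark arrays for 7 of the 11 at CT6, 10 at CT14 and 11 at CT22, beside 20.8%, 22.1% and 23.1% of all tested probe sets. In whole glands, more RNA per cell and more cells of a type that holds the RNA cannot be told apart.

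**Figure D1:**
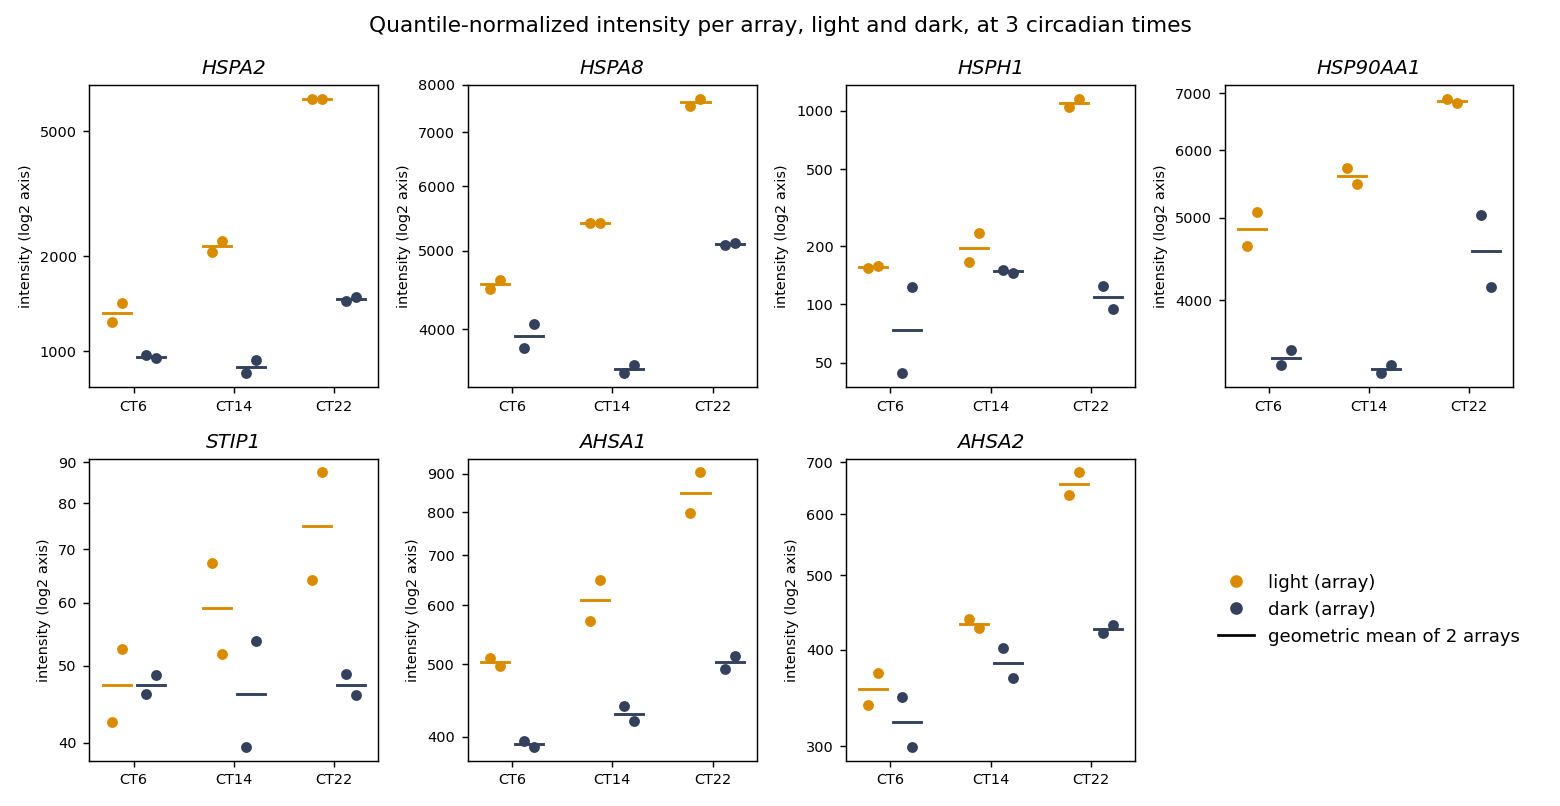
Quantile-normalized intensity (log2 axis) of the brighter probe set of each of the 7 genes on each array, by circadian time, with light in orange to the left of dark in blue, 2 arrays per group and their geometric mean as a bar. The axes differ between panels. Apart from STIP1, the CT22 light arrays are the highest of each gene, with HSPA2 at 6339 and 6304. The light and dark arrays of STIP1 overlap at CT6 and CT14.

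HSPA2 rose at each time, least at CT6 and most at CT22. At CT6 its normalized intensity was 1235 and 1420 on the light arrays, against 968 and 947 on the dark arrays. At CT14 it was 2071 and 2231 with light, against 849 and 938 in the dark. At CT22 it was 6339 and 6304 with light, against 1446 and 1489 in the dark. Light and dark arrays did not overlap at any of the times, and both CT22 light arrays stood above all others. The log2 change was 0.47 ± 0.08 (SE) at CT6 (1.38-fold, limma adjusted p = 0.0280), 1.27 ± 0.08 at CT14 (2.41-fold, adjusted p = 9.77e-07) and 2.11 ± 0.08 at CT22 (4.31-fold, adjusted p = 4.83e-09). At CT22 it had the second smallest p-value of all 23063 tested probe sets. The CT6 call did not hold in 7 of 21 other settings, among them the fits without CT6 light replicate 2 (adjusted p = 0.134), CT6 dark replicate 1 (0.0912) and CT6 dark replicate 2 (0.117). The CT14 and CT22 calls held in all 21.

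HSPA8, the other HSP70 gene, rose at CT14 and CT22 and by less than HSPA2. Its mean level lay at the 99.85 percentile of the array. On the light arrays it had 4493 and 4607 at CT6, 5417 and 5417 at CT14, and 7538 and 7695 at CT22. On the dark arrays it had 3800 and 4067 at CT6, 3532 and 3621 at CT14, and 5077 and 5108 at CT22. Light arrays lay above dark arrays at each time, but the CT6 light arrays lay below the CT22 dark arrays. The pair of equal values at CT14 comes from the normalization, since HSPA8 had the same rank on both arrays. As deposited these were 5327 and 5221. HSPA8 rose by 0.60 ± 0.05 at CT14 (1.52-fold, adjusted p = 2.43e-05) and by 0.58 ± 0.05 at CT22 (adjusted p = 2.98e-05). At CT6 the change was 0.21 ± 0.05 and did not pass (adjusted p = 0.124, 95% interval 0.10 to 0.32). With arrays centred on their medians instead of quantile normalized it was 0.43 and passed (adjusted p = 0.00637). On that scale the median light effect of all tested probe sets at CT6 was 0.08, and 230 were called higher, against 40 with quantile normalization.

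HSPH1, the HSP110 gene, had the widest change of the 7, at CT22. Its set 1 had 1051 and 1156 on the CT22 light arrays, against 125 and 94.9 on the CT22 dark arrays. At CT14 it had 165 and 232 with light, against 151 and 146 in the dark. At CT6 it had 154 and 157 with light, against 44.0 and 124 in the dark. The CT22 light arrays thus stood far above the other 10, whose highest value was 232, and the CT6 dark arrays disagreed with each other. At CT22 HSPH1 rose by 3.34 ± 0.33 (10.1-fold, adjusted p = 8.77e-05), the third largest change of any tested probe set at that time. Set 2 was a dimmer probe set, whose suffix marks probes that match several transcripts. At CT22 it had 50.5 and 36.4 with light and 10.9 and 7.2 in the dark, and rose by 2.27 ± 0.41 (limma adjusted p = 0.00880). Its mean over all arrays was log2 3.96, just above the filter cut of 3.73. In the dark its log2 means were 2.97 at CT6, 3.29 at CT14 and 3.15 at CT22, all under that cut. It was thus tested only because of its light groups, and its call is weak support for set 1.

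Neither HSPH1 probe set passed at the earlier times. At CT14 set 1 changed by 0.40 ± 0.33 (adjusted p = 0.646, 95% interval -0.31 to 1.11) and set 2 by 1.27 ± 0.41 (adjusted p = 0.161). At CT6 the values were 1.08 ± 0.33 for set 1 (adjusted p = 0.253) and 1.38 ± 0.41 for set 2 (adjusted p = 0.231). Light arrays did not overlap dark arrays in any of these 4 comparisons. The CT6 value of set 1 rested on the dark arrays. It was 0.33 without CT6 dark replicate 1 and 1.82 without CT6 dark replicate 2. Each of these fits has 1 CT6 dark array, so the disagreement of the 2 arrays no longer enters the error. The CT22 call of set 2 was lost without CT22 light replicate 1 (adjusted p = 0.0702) and without CT22 dark replicate 2 (0.0686).

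HSP90AA1, the inducible cytosolic HSP90 gene of vertebrates, was called at each time with both of its probe sets. Set 1 had 4625 and 5077 with light, against 3357 and 3492 in the dark at CT6. It had 5725 and 5477 with light, against 3283 and 3357 in the dark at CT14. At CT22 it had 6896 and 6819 with light, against 5041 and 4145 in the dark. Groups did not overlap at any time, although the first CT22 dark array of set 1 came within the range of the CT6 light arrays. The changes were 0.50 ± 0.08 at CT6 (1.42-fold, adjusted p = 0.0201), 0.75 ± 0.08 at CT14 (1.69-fold, adjusted p = 0.000132) and 0.58 ± 0.08 at CT22 (adjusted p = 0.00121).

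Set 2 of HSP90AA1, also with the suffix for several transcripts, moved further at the later times. It had 2056 and 2436 with light and 1503 and 1532 in the dark at CT6, and 2986 and 2848 with light and 1393 and 1368 in the dark at CT14. At CT22 it had 5383 and 5160 with light and 2441 and 2169 in the dark. Its changes were 0.56 ± 0.08 (adjusted p = 0.0126), 1.08 ± 0.08 (adjusted p = 6.96e-06) and 1.20 ± 0.08 (adjusted p = 1.80e-06). The 2 probe sets therefore had like values at CT6 and differed at CT22, where the 95% intervals were 0.42 to 0.75 for set 1 and 1.02 to 1.37 for set 2. The difference between the sets was not tested. Set 1 had a mean at the 99.81 percentile of the array and set 2 at the 99.41 percentile. At CT6 both calls were lost without CT6 light replicate 2 (adjusted p = 0.132 for set 1 and 0.0937 for set 2), CT6 dark replicate 1 (0.103 and 0.0578) or CT6 dark replicate 2 (0.0601 and 0.0574).

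AHSA1, which encodes the activator of the HSP90 ATPase, rose at CT14 and CT22. On set 1 it had 510 and 498 with light, against 395 and 387 in the dark at CT6. It had 572 and 649 with light, against 439 and 420 in the dark at CT14, and 797 and 904 with light, against 493 and 513 in the dark at CT22. No light array lay below a dark array of its time. The changes were 0.37 ± 0.09 at CT6 (adjusted p = 0.123, not called), 0.51 ± 0.09 at CT14 (1.42-fold, adjusted p = 0.00945) and 0.76 ± 0.09 at CT22 (1.69-fold, adjusted p = 0.000385). Without CT14 light replicate 2 the CT14 call was lost (adjusted p = 0.127), as it was without CT14 dark replicate 2 (0.0590). The dimmer set 2 was called at CT14, with 35.7 and 44.9 on light arrays against 15.0 and 18.1 on dark arrays (1.28 ± 0.28, adjusted p = 0.0361), and not at CT6 or CT22. That call was lost in 12 of 20 other settings, among them those without any 1 of the 4 CT14 arrays.

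AHSA2, the relative of AHSA1, was called only at CT22 among the 3 times. Set 1 had 635 and 680 with light, against 420 and 431 in the dark at CT22, which is 0.62 ± 0.10 (1.54-fold, adjusted p = 0.00325). At CT14 it had 439 and 427 with light and 402 and 367 in the dark, and at CT6 339 and 373 with light and 347 and 299 in the dark. The CT6 arrays overlapped, and the changes were 0.17 ± 0.10 at CT14 (adjusted p = 0.463) and 0.14 ± 0.10 at CT6 (adjusted p = 0.663). Set 2 gave -0.16 ± 0.22 at CT6, 0.43 ± 0.22 at CT14 and 0.51 ± 0.22 at CT22, none of which passed.

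STIP1, the adaptor between HSP70 and HSP90, had no call. Its set 1 was dim, with 42.5 and 52.5 on light arrays and 46.0 and 48.7 on dark arrays at CT6, and 67.3 and 51.7 on light arrays and 39.5 and 53.7 on dark arrays at CT14. At CT22 it had 64.0 and 87.4 with light, against 48.8 and 45.9 in the dark. The CT6 and CT14 groups overlapped and the CT22 groups did not. The CT22 change was 0.66 ± 0.23 (adjusted p = 0.138, 95% interval 0.18 to 1.14), above the called CT22 changes of HSPA8 and AHSA2 set 1, whose SE was 0.05 and 0.10. Set 2 of STIP1 had a mean at the 21.5 percentile of all probe sets and was not tested.

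**Figure D2:**
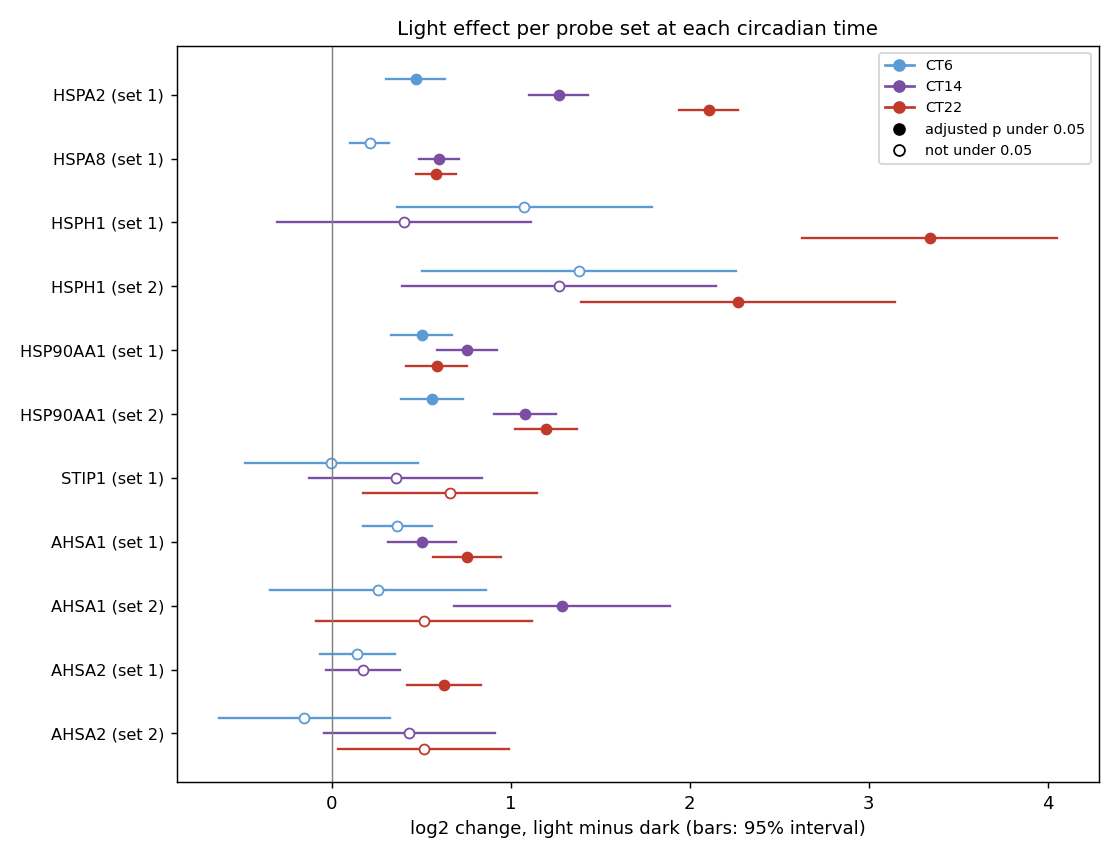
Log2 change, light minus dark, of the 11 tested probe sets at CT6 (blue), CT14 (purple) and CT22 (red), with 95% intervals of the limma fit; filled points have an adjusted p under 0.05. HSPH1 set 1 reaches 3.34 and HSPA2 2.11 at CT22, while HSPA8 has nearly the same change at CT14 (0.60) and CT22 (0.58).

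At CT14 the light arrays also had the lower actin ratios given above. With that ratio as a covariate, 1 of the 6 CT14 calls of these genes held, that of HSPA2, at 1.00 ± 0.13 (adjusted p = 0.0152). HSPA8 was at 0.60 ± 0.11 (adjusted p = 0.0889), and HSP90AA1 at 0.63 ± 0.16 on set 1 and 0.94 ± 0.16 on set 2. AHSA1 was at 0.62 ± 0.18 on set 1 and at 0.43 ± 0.52 on set 2 (adjusted p = 0.956), where the value without the covariate was 1.28. The standard errors in that fit were larger, with a median over all probe sets of 0.41 against 0.20. Over all 23063 tested probe sets, 18 were called at CT14 in that fit, against 388 without the covariate. The part of the actin ratio in the CT14 results was not tested further. At CT22, where actin ratios were 3.62 and 3.98 with light and 3.94 and 4.10 in the dark, all 8 calls held with the covariate.

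The study's title asks about time-of-day dependence of induction by light, for which the difference between light effects is the test. HSPA2 had a light effect that differed between all pairs of times. It was larger at CT22 than at CT14 by 0.84 ± 0.11 (adjusted p = 0.00278), larger at CT22 than at CT6 by 1.64 ± 0.11 (adjusted p = 7.11e-06), and larger at CT14 than at CT6 by 0.80 ± 0.11 (adjusted p = 0.00977). The CT14 against CT6 call of HSPA2 was lost in 6 of 20 other settings, among them the actin covariate (0.53, adjusted p = 0.669) and the fit without CT14 light replicate 2 (0.75, adjusted p = 0.0679). Its CT22 against CT14 call was lost in 2, as deposited (adjusted p = 0.0594) and without the variance trend (0.108), and its CT22 against CT6 call in none of the 20. HSPH1 set 1 had a larger effect at CT22 than at CT14 by 2.94 ± 0.47 (adjusted p = 0.00833). That call was lost without the filter (adjusted p = 0.0557), without the variance trend (0.127) and with the actin covariate (0.344), and set 2 gave 1.00 ± 0.58 (adjusted p = 0.442). Against CT6 the difference of set 1 was 2.26 ± 0.47 and did not pass (limma adjusted p = 0.0723). It did pass with the filter at the 60th percentile and with 16 added before log2. It was 3.01 without CT6 dark replicate 1 and 1.52 without CT6 dark replicate 2, fits in which 1 CT6 dark array is left. HSP90AA1 set 2 had a larger effect at CT22 than at CT6 by 0.64 ± 0.11 (adjusted p = 0.0410), a call that was lost in 16 of 20 other settings, among them the fits without any 1 of 11 of the 12 arrays. Set 1, the brighter, gave 0.08 ± 0.11 (adjusted p = 0.849). Counted by pair of times, 2 of the 11 probe sets passed for CT22 against CT14 (1.22% of all tested were called higher), 2 for CT22 against CT6 (0.156%) and 1 for CT14 against CT6 (0.0997%).

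For the other genes no direct comparison of the times passed the threshold. The light effect on HSPA8 differed between CT22 and CT14 by -0.02 ± 0.07 (adjusted p = 0.937), with a 95% interval from -0.17 to 0.14. Against CT6 it was larger by 0.37 ± 0.07 at CT22 (limma adjusted p = 0.0634, 95% interval 0.21 to 0.53). At CT14 it was larger than at CT6 by 0.39 ± 0.07 (limma adjusted p = 0.0755, 95% interval 0.23 to 0.54). With the filter at the 60th percentile the HSPA8 difference of CT22 against CT6 passed. The effect on AHSA1 set 1 was larger at CT22 than at CT6 by 0.39 ± 0.13 (adjusted p = 0.254), and that on AHSA2 set 1 by 0.48 ± 0.14 (adjusted p = 0.185). An F test over the 3 times asks whether the light effect is the same throughout. It passed for HSPA2 (adjusted p = 2.42e-05), HSPH1 set 1 (0.0179), HSPA8 (0.0247) and HSP90AA1 set 2 (0.0258), which is 4 of the 11 probe sets beside 1.34% of all tested. It did not pass for HSP90AA1 set 1 (0.439), AHSA1 set 1 (0.249), AHSA2 set 1 (0.129) or STIP1 set 1 (0.505), nor for set 2 of HSPH1 (0.560), AHSA1 (0.341) and AHSA2 (0.439).

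The dark groups show the levels without a pulse. HSPA2, HSPA8 and HSP90AA1 were higher at CT22 than at both other times in the dark. At CT22 in the dark HSPA2 stood 0.72 ± 0.08 above its CT14 level (1.64-fold, adjusted p = 9.51e-05) and 0.62 ± 0.08 above its CT6 level (adjusted p = 0.00128). HSPA8 was higher at CT22 by 0.51 ± 0.05 against CT14 (1.42-fold, adjusted p = 5.50e-05) and by 0.37 ± 0.05 against CT6 (adjusted p = 0.00242). For HSP90AA1 the differences were 0.46 ± 0.08 on set 1 and 0.74 ± 0.08 on set 2 against CT14 (adjusted p = 0.00321 and 0.000109), and 0.42 ± 0.08 and 0.60 ± 0.08 against CT6 (adjusted p = 0.0239 and 0.00201).

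In all, 5 of the 11 probe sets were higher in the dark at CT22 than at CT14 (3.26% of all tested) and 4 were higher at CT22 than at CT6 (0.603%). The fifth was AHSA1 set 2, at 1.10 ± 0.28 (adjusted p = 0.0331), which was lost without any 1 of the 4 dark arrays concerned, and whose set 1 gave 0.23 ± 0.09 (adjusted p = 0.163). Between CT14 and CT6 in the dark, 0 of the 11 passed in limma, where 1.34% of all tested were called higher and 2.14% lower. Before adjustment, 2 of the 11 were higher and 1 was lower with a limma p under 0.05. Among all 23063 tested, an unadjusted limma p of 0.0202 ranked 2473 for this pair of times, and one of 0.0651 ranked 4535. Values that small were thus common, and the 2 and the 1 are not read further. HSPH1 set 1 had 151 and 146 at CT14 and 44.0 and 124 at CT6 in the dark, a difference of 1.01 ± 0.33 (adjusted p = 0.123). That difference was 1.76 without CT6 dark replicate 2 and 0.26 without CT6 dark replicate 1, fits in which 1 CT6 dark array is left. Over the 3 dark times the F test passed for HSPA2, HSPA8 and both sets of HSP90AA1, 4 of 11 beside 6.43% of all tested. Without CT6 dark replicate 1, CT6 dark replicate 2 or CT22 dark replicate 1, the call of HSP90AA1 set 1 against CT6 was lost (adjusted p = 0.107, 0.0873 and 0.201).

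These dark comparisons depend on the scale, since deposited values were brighter overall on the CT22 dark arrays. On the deposited scale the median of all tested probe sets was 0.37 higher at CT22 than at CT14 in the dark, and 0.28 higher than at CT6. On that scale HSPA2 stood 1.02 and HSPA8 0.66 above CT14, both past the threshold. So did many others, since 5130 of the 23063 tested probe sets were called higher there, against 751 with quantile normalization. With quantile normalization the median of all probe sets differed by 0.016 and 0.005.

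**Figure D3:**
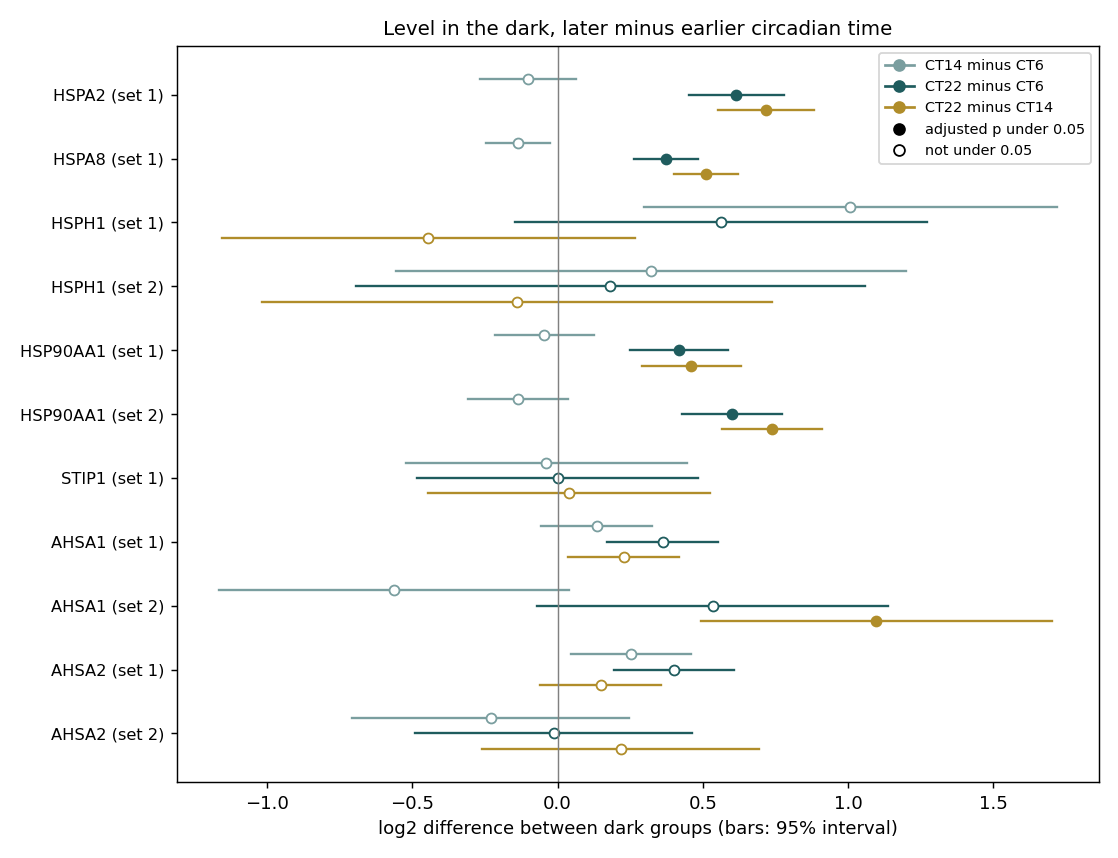
Log2 difference between dark groups, later minus earlier time, of the 11 tested probe sets, with 95% intervals of the limma fit; filled points have an adjusted p under 0.05. HSPA2, HSPA8 and both HSP90AA1 sets lie to the right of 0 for CT22 against CT6 and against CT14, and no point is filled for CT14 against CT6.

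Placing the 6 groups in order of level shows how the light and dark differences combine. The pairs of neighbours compared were picked by that order from the same values, and the adjusted p does not cover this choice. The CT22 light group had the highest mean for each of the 11 probe sets. HSPA2 followed the order CT22 light, CT14 light, CT22 dark, CT6 light, CT6 dark and CT14 dark. Its CT22 dark and CT6 light groups did not differ past the threshold (0.15 ± 0.08, adjusted p = 0.500), nor did its CT6 dark and CT14 dark groups (adjusted p = 0.551). HSPA8 had the same order, and there only the top step, CT22 light over CT14 light, passed among neighbours (0.49 ± 0.05, adjusted p = 8.34e-05). Its CT14 light group stood 0.09 ± 0.05 above its CT22 dark group (adjusted p = 0.517). HSP90AA1 set 2 also had this order, and its CT22 dark and CT6 light arrays overlapped. In set 1 the 3 light groups came first, and 1 step passed, from CT22 dark to CT6 dark (0.42 ± 0.08, adjusted p = 0.0239). For HSPH1 set 1 the top step of 2.49 ± 0.33 passed (adjusted p = 0.000594), and no lower step did. AHSA1 set 1 and AHSA2 set 1 likewise had a top step that passed, at 0.48 ± 0.09 (adjusted p = 0.00734) and 0.60 ± 0.10 (adjusted p = 0.00249). No step passed for STIP1 set 1, nor for set 2 of HSPH1, AHSA1 and AHSA2.

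Other genes of the same machinery were taken from 8 lists of 71 genes, of which 60 were on the array and 56 were tested, each by its brightest tested probe set. With light, 0 of the 56 passed at CT6 in limma, 9 were higher at CT14 and 15 were higher at CT22, beside 0.173%, 1.14% and 1.73% of all tested probe sets. None of the 56 was lower past the threshold, where 0.0434%, 0.538% and 1.95% of all tested probe sets were lower at these times. So few lower calls are near those small shares. At an unadjusted p under 0.05 in limma there were 9 higher and 1 lower at CT6. Over all 23063 tested at CT6, an unadjusted limma p of 0.00600 ranked 548 and one of 0.163 ranked 5665. The exact share under 0.05 was not counted, so the 9 and the 1 are not read further. The median change of the 56 was 0.09 at CT6, 0.07 at CT14 and 0.09 at CT22. Most of these genes thus did not pass, and the 15 included members of every list except the heat shock factors and HSP90AB1. The lists do not hold every chaperone gene. Outside them, BAG3 and DNAJA4 were called at CT6, at 0.61 and 0.50 (limma adjusted p = 0.0400 and 0.00825). HSPB8, also outside them, was at 1.07 and not called there (limma adjusted p = 0.242).

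HSP90AB1, which encodes the cytosolic HSP90 known as constitutive, changed by 0.06 ± 0.15 at CT6, -0.26 ± 0.15 at CT14 and 0.001 ± 0.15 at CT22, and none passed (adjusted p from 0.469 to 0.999). Its 1 tested probe set was much dimmer than HSP90AA1 set 1, with log2 group means of 7.13 to 7.70 against 11.70 to 12.74. How well it reports the transcript was not tested. Among the other cytosolic HSP70 and HSP110 genes, 3 of 4 rose at CT22. They were HSPA4L, an HSP110 relative (0.90 ± 0.08, adjusted p = 1.85e-05), HSPA12A (0.72 ± 0.17) and HSPA4, another HSP110 gene (0.42 ± 0.09). HSPA4L also rose at CT14, by 0.47 ± 0.08. Of 11 HSP70 co-chaperones tested, DNAJA1, a J-domain protein that stimulates the HSP70 ATPase, rose by 0.89 ± 0.08 at CT14 and 1.10 ± 0.08 at CT22, and DNAJB6 rose by 0.45 ± 0.10 at CT22. BAG1, BAG2, BAG4 and BAG5, nucleotide exchange factors or regulators of HSP70, had changes between -0.23 and 0.27 over the 3 times and no call.

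Of 14 HSP90 co-chaperones tested, 4 rose at CT22. CHORDC1, also an HSP90-binding protein, rose by 1.47 ± 0.19 (2.77-fold, adjusted p = 0.00102), SUGT1 by 0.69 ± 0.08, FKBP4, an immunophilin of steroid receptor complexes, by 0.56 ± 0.08, and CACYBP by 0.51 ± 0.10. CHORDC1 and FKBP4 also rose at CT14, by 0.95 ± 0.19 and 0.45 ± 0.08. CDC37, which brings kinases to HSP90, changed by -0.09 ± 0.10 at CT22 (adjusted p = 0.714). Of 12 chaperonin and prefoldin genes, TCP1, CCT4 and CCT2, subunits of the cytosolic chaperonin, rose at CT22 by 0.42 ± 0.07, 0.33 ± 0.07 and 0.26 ± 0.07. CCT4 also rose at CT14, by 0.33 ± 0.07 (limma adjusted p = 0.0344).

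Chaperones of other compartments also passed in part. HSPD1, the mitochondrial HSP60, rose by 0.55 ± 0.08 at CT14 and 0.79 ± 0.08 at CT22, and HSPA9, the mitochondrial HSP70, by 0.37 ± 0.07 at CT14. In the endoplasmic reticulum (ER), HSPA5, the HSP70 known as BiP, rose by 0.88 ± 0.07 at CT14 and 1.18 ± 0.07 at CT22 (adjusted p = 7.59e-07), and HSP90B1, the HSP90 known as GRP94, by 0.39 ± 0.07 and 0.66 ± 0.07. Of the 56, 3 had a larger light effect at CT22 than at CT6 past the threshold, DNAJA1, HSPA5 and HSP90B1, beside 0.156% of all tested. For CT22 against CT14, 0 of the 56 passed in limma, beside 1.22% of all tested called higher, with 11 larger and 2 smaller at an unadjusted p under 0.05. In that comparison an unadjusted limma p of 0.00525 ranked 1097 and one of 0.0666 ranked 4192 among all 23063 tested. Such p-values were thus common, and the 11 and the 2 are not read further.

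Of 5 heat shock factor genes listed, 4 were on the array. HSF1 and HSF4 were not tested. The 3 tested were HSF2, HSF3 and the partner HSBP1. These 3 had no call with light in limma, and at an unadjusted p under 0.05 there was 1 lower at CT14 and 1 lower at CT22. Such p-values were common. Among all 23063 tested, an unadjusted limma p of 0.0732 ranked 4068 at CT14 and one of 0.0376 ranked 3355 at CT22. HSF2 changed by 0.17 ± 0.08 at CT6, 0.07 ± 0.08 at CT14 and 0.02 ± 0.08 at CT22. HSF3, a heat shock factor studied in birds, changed by -0.04 ± 0.10, -0.21 ± 0.10 and -0.27 ± 0.10 at these times (adjusted p from 0.158 to 0.917). HSBP1, a binding partner of the factors, lay between -0.03 and 0.05. All of these are RNA levels, and the activity of the factors was not measured. In the dark HSF2 was higher at CT22 than at CT14 by 0.49 ± 0.08 (adjusted p = 0.00241) and than at CT6 by 0.46 ± 0.08 (adjusted p = 0.0150). It was not alone in this among the related genes. In the dark 10 of the 56 were higher at CT22 than at CT14, beside 3.26% of all tested probe sets. Against CT6, 6 of the 56 were higher, beside 0.603%. DNAJA1, HSPD1, HSPA5, HSP90B1 and CCT2 passed in both comparisons as HSF2 did.

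**Figure D4:**
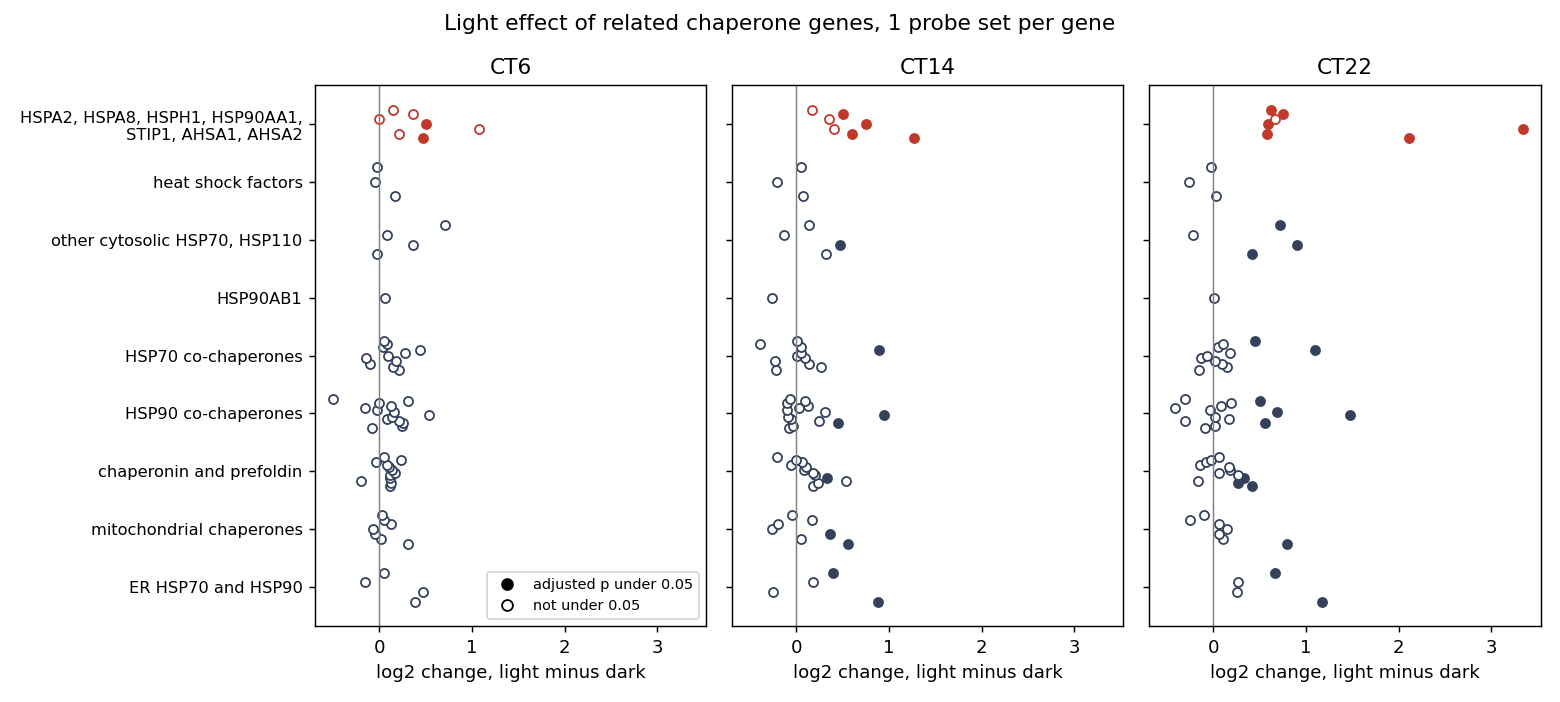
Log2 change, light minus dark, of 1 probe set per gene at each circadian time, for the 7 chaperone genes (red) and the related lists (blue); filled points have an adjusted p under 0.05 and vertical spread within a row separates points only. HSPA2 and HSPH1 lie furthest right at CT22 at 2.11 and 3.34, and HSF2, HSF3, HSBP1 and HSP90AB1 have no filled point.

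Likeness of pattern was measured as the mean absolute difference, over the 12 arrays, between log2 values centred on each probe set's own mean, among 10406 genes with 1 probe set each. Outside the 7 genes, HSPA2 was nearest to BAG3, a co-chaperone of HSP70 (0.16), then HERPUD1, a protein of ER degradation (0.19), and DNAJA4, a J-domain protein (0.25). BAG3 changed with light by 0.61 at CT6, 1.16 at CT14 and 2.59 at CT22, all called. DNAJA4 changed by 0.50, 0.87 and 1.39 at these times, all called. HERPUD1 changed by 0.35, 0.67 and 1.88, called at CT14 and CT22 only. HSPH1 was nearest to HSPB8, a small heat shock protein (0.38), BAG3 (0.43) and P4HA2 (0.46). With light, HSPH1 and HSPB8 changed by 1.08 and 1.07 at CT6, by 0.40 and 0.39 at CT14, and by 3.34 and 2.69 at CT22, where alone both passed.

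Again outside the 7 genes, HSPA8 was nearest to FKBP4 (0.06), HSPD1 (0.07) and RCAN1 (0.10), and HSP90AA1 to RCAN1, FKBP4 and DAGLB (each 0.12 at 2 decimals). AHSA1 was nearest to HSPD1 (0.08), HSPA4L (0.09) and SUGT1 (0.10), and AHSA2 to ST13P5, NUAK2 (each 0.09) and TCP1 (0.10). Within the 7 genes the nearest pairs were HSPA8 with AHSA1 (0.10) and HSPA8 with HSP90AA1 (0.11), and HSPA8 was nearer to HSP90AA1 than any gene outside the 7. HSPA2 lay 0.49 from HSPA8, although both are HSP70 genes. The mean absolute deviation of a gene from its own mean, which such a distance is read against, was 0.76 for HSPA2, 0.91 for HSPH1 and 0.24 to 0.33 for HSPA8, HSP90AA1, AHSA1 and AHSA2. The arrays compared are shared by all these genes, so the distances are a description.

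Some markers of cell types moved with light, mostly at CT22. Of the 9 pinealocyte markers, AANAT, whose enzyme sets the rhythm of melatonin, fell by 0.83, PDC by 0.44 and PDE6G by 0.26, and their summed intensity was 24700 to 26390 on CT22 light arrays, against 28960 to 29710 on CT22 dark arrays. Of 6 choroid plexus markers, FOLR1 and KL rose at CT22, by 0.81 and 0.79. CLIC6 (0.306), TTR (0.049), AQP1 (-0.074) and OTX2 (-0.082) were not called there. The summed choroid plexus level at CT22 was 11890 to 12770 with light and 11810 to 12190 in the dark. All such sums add linear intensities, so the brightest genes weigh most. Here these were TTR and OTX2 (mean log2 12.94 and 11.87), against 8.38 for FOLR1 and 7.01 for KL, whose rise the sum can hardly show. OTX2 is on the pinealocyte list as well and enters both sums. Of 4 tested glial markers, MBP fell by 0.65 and GFAP by 0.42 at CT22, while AQP4 (0.122) and CNP (0.365) were higher with light and not called. The summed glial level, in which MBP and GFAP weigh most, was 741 to 827 with light and 1085 to 1112 in the dark. COL1A1, of 6 fibroblast and meningeal markers, rose at CT14 by 0.84 and at CT22 by 0.38, and COL1A2 rose at CT22 by 0.40. LUM (0.274), COL3A1 (0.032), POSTN (0.025) and DCN (-0.024) were not called at CT22. The summed fibroblast and meningeal level at CT22 was 9794 to 10390 with light and 9274 to 9957 in the dark. At CT22 macrophage markers summed to 3334 to 4200 with light and 3735 to 4145 in the dark, and neuron markers to 2776 to 3332 with light and 3300 to 3470 in the dark. Erythrocyte markers summed to 7648 to 7871 with light and 7559 to 8003 in the dark, and skeletal muscle markers to 113 to 125 with light and 142 to 160 in the dark. Of the pinealocyte markers RBP3 rose at CT14, by 1.17. At CT14, where 4 of the 7 genes were called, summed pinealocyte levels were 27310 to 28700 with light and 25490 to 25910 in the dark. Erythrocyte markers, 2 genes tested, summed there to 5986 to 6436 with light and 8202 to 8754 in the dark. Fibroblast and meningeal markers summed to 9692 to 10100 with light and 8586 to 9349 in the dark, and neuron markers to 3204 to 3272 with light and 2829 to 3157 in the dark. None of these 4 sums overlapped between light and dark at CT14, while those of choroid plexus, glia, macrophages and skeletal muscle did. With 2 arrays per group such separation is common. For single probe sets, 22.1% of all tested had light above dark without overlap at CT14. The part of these markers in the changes of the chaperone genes was not tested. At CT6, where HSPA2 and HSP90AA1 were called, summed pinealocyte levels were 27110 to 28770 with light and 28380 to 28950 in the dark. Only the glial sum did not overlap at CT6, at 952 to 963 with light and 972 to 994 in the dark.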

How the data were processed

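RNA was hybridised to 12 Affymetrix chicken arrays in 6 groups of 2, taken from the sample labels. Per the labels, 9 micrograms of total RNA from 6 glands went into each labelling. For each probe set and array the authors deposited a linear intensity. Which software summarised the probes, and how it scaled them, is not given in the sources used here. Of 38535 probe sets, 96 controls were left out. The platform annotation gave 1 gene for 27168 of the rest, several for 177 and none for 11094. Intensities were taken to log2, quantile normalized, and set to at least 1 on the linear scale. The quantile normalization hides any change common to most probe sets. The test took the 23063 probe sets whose mean exceeded the 40th percentile (log2 3.73). One fit with limma 3.58.1 in R 4.3.3 held 6 group means, with 6 residual degrees of freedom, a variance trend and Benjamini-Hochberg adjustment over all probe sets. The fit was run on simulated data with independent normal errors, which checks the code and not the calls made here. No genome of a stated build was used, so no coordinates or sequences are given. Every probe set of the 7 genes was named. The brightest tested one stood for a gene with several, and the 3 nearest genes in pattern were named for each gene with a call. Members of the related lists could be named where called, and HSP90AB1, CDC37, the BAG genes and the heat shock factors were named for their role. The members and lists were chosen with earlier results of these data known. Alternatives were the deposited scale, median centring, other filters, an added constant of 16, no variance trend, the actin ratio as a covariate, a replicate block, leaving out each array, and fits of 1 time.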

Additional observations from a re-analysis of the deposited data

Results flagged for a closer look

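The light effect differed between times, by the direct test of the difference in limma, for at least 1 probe set of 3 of the 7 genes. For HSPA2 the effect was larger at CT22 than at CT14 by 0.839, larger at CT22 than at CT6 by 1.639, and larger at CT14 than at CT6 by 0.800 on the log2 scale. HSPH1 set 1 had an effect larger by 2.938 at CT22 than at CT14, and HSP90AA1 set 2 had one larger by 0.635 at CT22 than at CT6. That HSP90AA1 call was lost in 16 of 20 other settings, and the brighter set 1 of HSP90AA1 gave 0.084 (adjusted p = 0.849). The groups held 2 arrays each, so single arrays were not tested as outliers.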

How the results depend on the processing

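Each comparison was refitted in 21 other settings (20 for differences between times), 12 of which left out 1 array each. For 72 results of single probe sets this gave 1463 values, of which 1335 kept direction and side of the threshold, 85 lost the call, 17 gained one and 26 changed sign. A fit with 1 array left out has 1 array in that group, whose spread no longer enters the error. The count of called probe sets among the 11 was 3 at CT6, and 5 with arrays centred on their median, 0 without the filter, 0 without the variance trend, 1 with arrays of 1 time only and 0 to 3 with 1 array left out. At CT14 it was 6, then 1 with the actin covariate and 4 to 6 with 1 array left out. At CT22 it was 8 and 7 to 8 with 1 array left out. For CT22 against CT14 the 2 became 1 as deposited, 1 without the filter, 0 without the trend and 1 with the actin covariate, and stayed at 2 with 1 array left out. For CT22 against CT6 the 2 became 1 as deposited, centred, without the filter, without the trend or with the replicate block, 4 with the filter at the 60th percentile, and 1 to 3 with 1 array left out. For CT14 against CT6 the 1 became 0 as deposited, centred, without the filter, without the trend and with the actin covariate, and 0 to 2 with 1 array left out. In the dark, CT22 against CT14 gave 5, 7 as deposited, 3 without the trend and 4 to 5 with 1 array left out. CT22 against CT6 gave 4, 6 as deposited, 6 centred, 2 without the filter, 0 without the trend and 3 to 4 with 1 array left out, and CT14 against CT6 gave 0 and 0 to 1. The causes were not tested.

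After quantile normalization, deviations of same-numbered arrays correlated with r between -0.028 and 0.028, and the replicate block gave 3, 5 and 8 called probe sets with light. The labels do not say whether same-numbered arrays were processed together. Normalization can remove effects shared by such arrays, so these values cannot decide it. Signs changed for uncalled values. They became 0.031 for STIP1 at CT6 when centred (-0.155 to 0.149 with 1 array left out), and 0.123 for HSPA8 for CT22 against CT14 when centred. HSP90AA1 set 1 gave -0.078 as deposited and -0.046 centred for CT22 against CT6 (-0.057 to 0.223), and -0.043 centred for CT14 against CT6. AHSA2 gave -0.096 centred (-0.078 to 0.137) and HSPH1, at -0.674 with all arrays, gave -1.422 to 0.072 for CT14 against CT6, positive without CT6 dark replicate 1. In the dark, STIP1 with the actin covariate gave -0.004 for CT22 against CT14 (-0.182 to 0.261), -0.002 for CT22 against CT6 (-0.044 to 0.045) and 0.003 for CT14 against CT6 (-0.260 to 0.182). HSPH1, at 0.562 with all arrays, gave -0.183 to 1.311 for CT22 against CT6, HSP90AA1 set 1 0.011 as deposited and 0.126 centred, and HSPA8 0.020 centred, for CT14 against CT6.

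Over all probe sets, calls were 50 at CT6 (9 to 237 in other settings), 388 at CT14 (18 to 471), 848 at CT22 (161 to 1005), 525 for CT22 against CT14 (11 to 708), 55 for CT22 against CT6 (6 to 144), 27 for CT14 against CT6 (1 to 52), and in the dark 1506 (528 to 5389), 256 (25 to 1257) and 802 (143 to 1024). Higher and lower calls were 40 and 10 at CT6 (25 and 1 as deposited, 230 and 7 centred), 264 and 124 at CT14 (301 and 54 as deposited), 399 and 449 at CT22 (166 and 343 as deposited), 281 and 244 for CT22 against CT14 (109 and 290 as deposited), 36 and 19 for CT22 against CT6 (28 and 46 centred) and 23 and 4 for CT14 against CT6 (7 and 0 as deposited, 12 and 11 centred). In the dark they were 751 and 755 for CT22 against CT14 (5130 and 259 as deposited), 139 and 117 for CT22 against CT6 (1229 and 28 as deposited, 204 and 60 centred), and 308 and 494 for CT14 against CT6 (111 and 310 as deposited, 578 and 337 centred). On the deposited scale the median light effect of all probe sets was 0.125 at CT14 and -0.113 at CT22. No variance trend also ended the CT22 calls of HSP90AA1 set 1 (adjusted p = 0.0754) and AHSA2 (0.0608). Among the 11 probe sets the SE of a light effect ran from 0.05 for HSPA8 to 0.41 for HSPH1 set 2.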
